A study of Mus musculus with 6 samples.

Results

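The lipases of the adipocyte, the proteins that regulate them and the glycerol channel were followed through 6 cultures of primary brown adipocytes, 3 from WT and 3 from Ucp1-KO mice. The group holds 10 genes named by function, namely Pnpla2, Abhd5, G0s2, Lipe, Mgll, Pnpla3, Pnpla8, Ces1d, Lipa and Aqp7, out of 22466 gene symbols with a RefSeq transcript in the deposited table. These 10 genes have 17 of the 28890 RefSeq rows, and the row with the highest mean stands for a gene. All 10 passed the minimum abundance for testing. Cells of the stromal-vascular fraction of interscapular brown fat were taken from male mice aged 5 to 6 weeks of strain 129SvEvS1, either wildtype (WT, replicates 10, 11 and 12) or UCP1(-/-) (Ucp1-KO, replicates 13, 14 and 15), and each replicate was a culture of its own. All 6 cultures shared the same differentiation, with isobutylmethylxanthine, indomethacin and dexamethasone during 2 days of induction and with insulin, T3 and the PPARγ agonist rosiglitazone throughout. No β-adrenergic stimulus is named for the RNA samples. The knockout is present in every cell of the mouse from conception on, and how many mice went into a culture is not given in the sources used here.

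Adipocyte lipolysis is a chain of hydrolyses. Adipose triglyceride lipase, the product of Pnpla2, releases the first fatty acid of a triglyceride, hormone-sensitive lipase (Lipe) acts mainly on the diglyceride that remains, and monoglyceride lipase (Mgll) frees the last fatty acid and glycerol, which leaves the cell through the aquaglyceroporin AQP7. The co-activator ABHD5 (also CGI-58) stimulates adipose triglyceride lipase and the small protein G0S2 inhibits it. In brown adipocytes, fatty acids released by this chain are fuel for heat production and activate UCP1.

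Total reads behind the RPKM values (reads relative to the length of a transcript and the size of a library) were recovered from the steps between low values and lay between 14989604 and 17727653 per culture. Cultures of the same genotype were separate libraries, with a chi-square per degree of freedom of at least 11 between the read numbers of any pair. Ucp1, the targeted gene, had 1775, 981 and 1157 RPKM in WT and 307, 409 and 398 RPKM in Ucp1-KO cultures, in which a remnant transcript is still made. Of 8 adipocyte markers, 7 were above the minimum abundance and Lep was below it, and their summed abundance was between 29007 and 31044 RPKM in WT and between 30356 and 32240 RPKM in Ucp1-KO cultures. The 9 stromal and preadipocyte markers, of which 8 were abundant enough to be tested, summed to between 689 and 1615 RPKM in WT and between 596 and 968 RPKM in Ucp1-KO cultures, highest in WT replicate 11 and lowest in Ucp1-KO replicate 15. Of 6 macrophage markers 5 were listed, with sums between 53.1 and 161 RPKM in WT and of 156, 767 and 40.6 RPKM in Ucp1-KO replicates 13, 14 and 15. In such bulk samples fewer cells of a type and less RNA per cell cannot be told apart.

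Genotypes were compared with limma on log2(RPKM + 1) over 16865 RefSeq transcripts, and a positive log2 fold change means a higher level in Ucp1-KO cells. Of the 10 genes, 0 had an adjusted p under 0.05, as did 0% of all transcripts tested. The targeted gene Ucp1 was not called either, at a log2 fold change of -1.78 (limma unadjusted p = 1.57e-04, adjusted p = 0.868), so that a count of 0 does not show that levels were equal. By limma-voom on the recovered reads the count was also 0. At an unadjusted p under 0.05 there were 2, Pnpla3 and Aqp7, both higher in Ucp1-KO cells, where 5.54% of all transcripts tested had such a p and 2.3% had it with the higher level in Ucp1-KO cells. In the same 2 genes the cultures of the genotypes did not overlap, which was so for 11.2% of all transcripts. The point estimate was above 0 for 9 genes and below 0 for 1, with a median log2 fold change of 0.15 over the 10, against 8369 above and 8496 below 0 among all transcripts tested. The 10 genes are not independent of each other, so this balance was not tested.

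**Figure D1:**
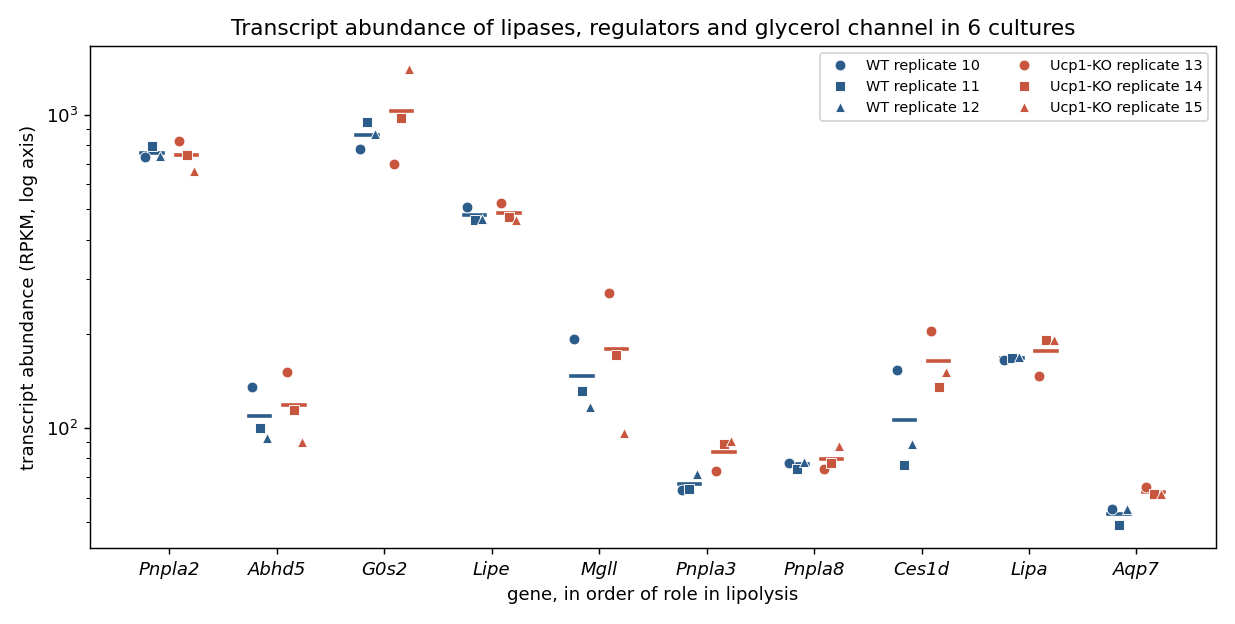
Transcript abundance in RPKM on a log axis for the 10 genes, with 1 point per culture, WT in blue and Ucp1-KO in red, and a horizontal line at the mean of each genotype (n = 3). The genotypes are apart only for Pnpla3 and Aqp7, and the points of Mgll and G0s2 spread most widely in Ucp1-KO cells, from 96.2 to 271 and from 700.0 to 1405 RPKM.

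In WT cells the order of abundance was G0s2 with 866 ± 87.2 RPKM, Pnpla2 with 757 ± 33.9, Lipe with 478 ± 27.2, Lipa with 167 ± 1.93, Mgll with 147 ± 40.6, Abhd5 with 109.5 ± 22.8, Ces1d with 106 ± 41.4, Pnpla8 with 76.5 ± 1.99, Pnpla3 with 66.2 ± 4.49 and Aqp7 with 53.1 ± 3.65 RPKM (SD, n = 3 each). G0s2 and Pnpla2 overlapped among WT cultures, and so did each of the neighbours from Lipa to Pnpla8. Lipe stood clear of Pnpla2 above it and of Lipa below it in both genotypes, as did Pnpla3 of Aqp7. In Ucp1-KO cells Mgll, with a mean of 179.7 ± 87.9 RPKM, came before Lipa with 177 ± 25.3 RPKM, Ces1d with 164 ± 36.6 RPKM before Abhd5 with 118 ± 30.5 RPKM, and Pnpla3 before Pnpla8, and in all 3 cases the cultures overlapped (SD, n = 3 each). The transcript of the inhibitor, G0s2, thus overlapped that of its target lipase in level, while that of the co-activator, Abhd5, was several times lower.

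Pnpla2 lies on the forward strand of chromosome 7 (GRCm38, 141455188 to 141460743). Its abundance was 735, 796 and 739.9 RPKM in WT replicates 10, 11 and 12 and 825, 744 and 662 RPKM in Ucp1-KO replicates 13, 14 and 15. The highest and the lowest value both belonged to Ucp1-KO cultures, with the WT cultures between them. By limma the log2 fold change was -0.03 with a standard error of 0.12 (adjusted p = 0.975), and the 95% interval from -0.32 to 0.25 limits a difference to between 0.803 and 1.19 times the WT level. Each value rested on at least 26138 reads. The other RefSeq rows of Pnpla2 had 717, 779, 717, 810.4, 728 and 647 RPKM (NM_025802) and 714, 773, 718, 799.9, 722 and 642 RPKM (NR_028142) in replicates 10 to 15. The second of these rested on nearly the same reads as the main row, over a greater length. The first rested on fewer reads, between 23921 and 32288 per culture against 26138 and 35094 for the main row.

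Abhd5 lies on the forward strand of chromosome 9 (122351616 to 122381524). It had 135, 100.4 and 92.7 RPKM in WT and 151, 114 and 90.2 RPKM in Ucp1-KO cultures. Replicate 10 was the highest WT culture and replicate 13 the highest of all, and the genotypes overlapped over nearly their whole range. For Abhd5 this gave a log2 fold change of 0.10 (95% interval -0.42 to 0.62, limma adjusted p = 0.955). Exons of Abhd5 share 950 bases with those of the antisense gene A730085K08Rik, whose RefSeq row had between 0 and 0.236 RPKM.

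G0s2 lies on the reverse strand of chromosome 1 (193272160 to 193273188). Its levels were 777, 951 and 869.6 RPKM in WT replicates 10, 11 and 12. In Ucp1-KO replicates 13, 14 and 15 they were 700.0, 980.1 and 1405 RPKM. Replicate 15 was above and replicate 13 below every WT culture, so that the Ucp1-KO cultures enclosed the WT range. Within Ucp1-KO cells the highest value was 2.01 times the lowest, against 1.22 times in WT cells. Its log2 fold change of 0.19 had a 95% interval from -0.40 to 0.79 (limma adjusted p = 0.919), and without Ucp1-KO replicate 15 it was -0.06. Among the RefSeq transcripts of a single culture, G0s2 held a rank between 14 and 46 by abundance.

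Lipe lies on the reverse strand of chromosome 7 (25379527 to 25398486). It was the steadiest of the 3 lipases of the chain, with 509.8, 461 and 465 RPKM in WT and 523, 473 and 461 RPKM in Ucp1-KO cultures. The highest culture was 1.14 times the lowest, and replicates 10 and 13 were the highest of their genotypes. Between genotypes the log2 fold change was 0.02 (95% interval -0.23 to 0.27, limma adjusted p = 0.982). Lipe has 2 RefSeq rows, of 2785 and 3221 bases by the recovered lengths. The longer one, NM_010719, had only between 52 and 79 reads more than the shorter one, NM_001039507, on 436 more bases. That is 119 to 181 reads per 1000 additional bases, against 6904 to 8703 reads per 1000 bases of the shorter row. The 2 rows therefore share nearly all of their reads and are no independent measurements. A predicted row, XM_003945772, had at most 0.180 RPKM in any culture. The antisense gene 4732471J01Rik shares 918 exon bases with Lipe, and its 3 RefSeq rows had 2.01 to 2.72, 2.12 to 3 and 102 to 118 RPKM. The libraries were made with the TruSeq RNA kit v2, which does not mark the strand, so reads of either gene on the shared bases cannot be told apart.

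Mgll lies on the forward strand of chromosome 6 (88724412 to 88828360) and varied most of the 10 genes. It had 193, 131 and 117 RPKM in WT replicates 10, 11 and 12 and 271, 171 and 96.2 RPKM in Ucp1-KO replicates 13, 14 and 15. The Ucp1-KO cultures again enclosed all WT cultures, with a 2.82-fold range that rested on 16111 reads in replicate 13 and 5303 in replicate 15. Its log2 fold change of 0.20 had the widest 95% interval of the 10 genes, from -0.69 to 1.1 (limma adjusted p = 0.947). Without Ucp1-KO replicate 13 it was -0.16 and without Ucp1-KO replicate 15 it was 0.59. Its spread within genotypes, an SD of 0.59 on the log2 scale, was above that of 96.6% of all transcripts tested. Among the other RefSeq rows of Mgll, NM_001166249 and NM_001166251 followed the same order of cultures at between 88.9 and 267 RPKM. The short row NM_001166250, of 1204 bases, had between 13.4 and 39.9 RPKM.

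The transcripts of Abhd5, Lipe and Mgll ordered the cultures alike, highest in replicates 13 and 10. Abhd5 and Mgll had Pearson's r = 0.98 (exact permutation p = 0.00139) and Spearman's rho = 1.0 (p = 0.00278) over the 6 cultures of both genotypes, and r = 0.98 without the 2 cultures farthest from the median. For Abhd5 and Lipe r was 0.96 (exact permutation p = 0.00417) and rho 0.94 (p = 0.0167), with r = 0.80 without the 2 farthest cultures. For Lipe and Mgll r was 0.91 (exact permutation p = 0.00417) and rho 0.94 (p = 0.0167), with r = 0.83 without them. Pnpla8 ran opposite to Pnpla2, with r = -0.95 (exact permutation p = 0.00556) and rho = -0.83 (p = 0.0583), and r = -0.95 without the 2 farthest cultures. Adjusted over all 45 pairs of the 10 genes, each of these 4 permutation tests of r gave p = 0.0625 and the others more, so 0 pairs passed 0.05. G0s2 and Mgll had r = -0.83 (exact permutation p = 0.0458, adjusted p = 0.224) and rho = -0.77 (p = 0.103), a relation that rested on Ucp1-KO replicates 13 and 15, since r was -0.34 without them. Exact permutation p was smaller for G0s2 with Lipa (r = 0.85, p = 0.0194, adjusted p = 0.156) and Ces1d with Aqp7 (r = 0.86, p = 0.0208, adjusted p = 0.156). It was also smaller for G0s2 with Pnpla8 (r = 0.86, p = 0.0389, adjusted p = 0.224). Without the 2 farthest cultures these r values were 0.69, 0.51 and -0.36. Within a genotype 3 cultures are too few for such a comparison.

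**Figure D2:**
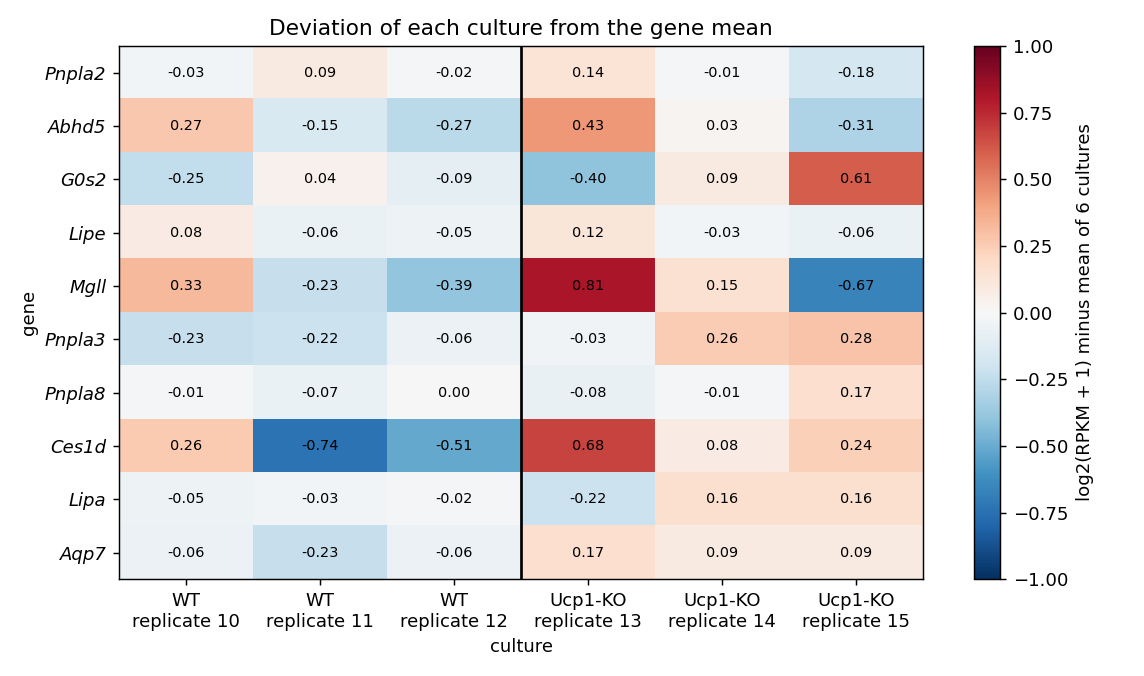
Deviation of each culture (columns, WT left and Ucp1-KO right of the line) from the mean of the 6 cultures for each gene (rows), in log2(RPKM + 1). Ucp1-KO replicates 13 and 15 deviate in opposite directions for Mgll (0.81 and -0.67), Abhd5 (0.43 and -0.31) and G0s2 (-0.40 and 0.61).

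Windows around the annotated starts of these genes, 250 bases before to 50 bases after, were taken from RefSeq (GRCm38.p6) for the 3 genes that ordered the cultures alike and for G0s2, which did not. Capitals mark motifs found on either strand, here the GC box (GGGCGG) and the E-box (CACGTG). In Lipe some GC boxes overlap each other. For Lipe, first and upstream refer to the 2 starts with a window, since its RefSeq locus reaches further upstream, to 25398486.
Abhd5, chr9:122351366-122351665, forward strand: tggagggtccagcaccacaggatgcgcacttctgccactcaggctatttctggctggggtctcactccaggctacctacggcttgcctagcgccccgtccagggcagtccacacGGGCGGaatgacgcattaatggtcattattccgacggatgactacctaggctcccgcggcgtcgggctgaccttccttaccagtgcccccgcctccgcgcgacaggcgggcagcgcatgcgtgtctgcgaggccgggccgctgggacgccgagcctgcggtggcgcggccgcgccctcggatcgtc
Mgll, first of its 2 starts, chr6:88724162-88724461, forward strand: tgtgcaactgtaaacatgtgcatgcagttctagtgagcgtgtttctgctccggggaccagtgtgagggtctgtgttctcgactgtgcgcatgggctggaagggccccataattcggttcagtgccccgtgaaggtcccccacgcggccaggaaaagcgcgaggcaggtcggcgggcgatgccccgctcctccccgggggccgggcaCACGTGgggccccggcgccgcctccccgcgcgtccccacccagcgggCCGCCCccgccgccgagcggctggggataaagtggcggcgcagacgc
Lipe, first of its 2 starts, chr7:25395938-25396237, reverse strand: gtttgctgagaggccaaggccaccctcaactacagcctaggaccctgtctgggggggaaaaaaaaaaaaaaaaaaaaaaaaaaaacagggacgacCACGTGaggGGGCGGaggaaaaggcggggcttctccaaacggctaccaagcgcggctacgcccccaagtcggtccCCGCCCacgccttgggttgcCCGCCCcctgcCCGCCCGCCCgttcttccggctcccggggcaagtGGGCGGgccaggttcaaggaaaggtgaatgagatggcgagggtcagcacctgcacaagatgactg
Lipe, the other start, chr7:25390063-25390362, reverse strand: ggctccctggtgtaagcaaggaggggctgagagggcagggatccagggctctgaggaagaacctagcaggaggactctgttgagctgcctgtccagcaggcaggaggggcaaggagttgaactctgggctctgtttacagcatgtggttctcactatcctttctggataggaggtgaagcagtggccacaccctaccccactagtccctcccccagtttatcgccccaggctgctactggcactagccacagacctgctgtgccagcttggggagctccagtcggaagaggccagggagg
G0s2, chr1:193273139-193273438, reverse strand: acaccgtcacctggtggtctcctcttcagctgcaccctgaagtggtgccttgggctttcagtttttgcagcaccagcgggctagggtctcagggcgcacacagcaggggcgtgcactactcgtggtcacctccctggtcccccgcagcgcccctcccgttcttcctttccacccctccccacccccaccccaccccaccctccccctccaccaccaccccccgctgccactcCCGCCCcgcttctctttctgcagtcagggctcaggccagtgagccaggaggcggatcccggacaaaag
An E-box was found in the windows of the upstream starts of Mgll and Lipe and in no other window of the 10 genes, and 7.17% of all 32544 RefSeq windows of this length hold it. A GC box was found in 9 of the 12 windows of the 9 genes with an entry, against 35.9% of all windows. It was present in G0s2 as in Abhd5, Mgll and the upstream start of Lipe, and absent from the second Lipe window and from both windows of Aqp7. Also searched on both strands were the TATA box (TATAAA, 13.6% of all windows), the CCAAT box (CCAAT, 37.4%), the cyclic AMP response element (TGACGTCA, 1.8%), a C/EBP palindrome (TTGCGCAA, 0.184%) and the PPAR direct repeat, AGGTCA repeated after 1 base (0.0399%). Pnpla3 held the cyclic AMP element and a CCAAT box, and Lipa a TATA and a CCAAT box. The last 2 motifs were in no window of these genes. Ces1d had no entry.

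Pnpla3, which encodes a lipid droplet protein of the patatin family related to adipose triglyceride lipase, lies on the forward strand of chromosome 15 (84167776 to 84189521). It had 63.3, 63.8 and 71.3 RPKM in WT and 72.7, 89.0 and 90.7 RPKM in Ucp1-KO cultures. All Ucp1-KO cultures were above all WT cultures (two-sided exact permutation p = 0.10, and no smaller p is possible with 3 against 3 cultures), but replicate 13 was above replicate 12 by little. The means of 66.2 ± 4.49 and 84.1 ± 9.92 RPKM (SD, n = 3 each) put the Ucp1-KO level at 127% of WT. By limma the difference was 0.34 on the log2 scale (standard error 0.11, 95% interval 0.07 to 0.61, unadjusted p = 0.0219, adjusted p = 0.868). Leaving out single cultures moved it to between 0.28 and 0.44, with an unadjusted limma p under 0.05 in 2 of 6 cases.

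Pnpla8 on the forward strand of chromosome 12 (44269132 to 44315936) encodes a calcium-independent phospholipase of mitochondria and peroxisomes. It had 77.2, 74.3 and 78.2 RPKM in WT and 73.9, 77.4 and 87.8 RPKM in Ucp1-KO cultures. The WT cultures lay within the Ucp1-KO range, and the log2 fold change was 0.05 (95% interval -0.17 to 0.28, limma adjusted p = 0.943).

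Ces1d, a carboxylesterase gene on the reverse strand of chromosome 8 (93166072 to 93197804) whose product hydrolyses triglyceride in liver and fat, had the largest point estimate of the 10 genes. It had 153, 76.0 and 89.3 RPKM in WT and 205, 135 and 151 RPKM in Ucp1-KO cultures. WT replicate 10 lay among the Ucp1-KO cultures, and the other WT cultures were below all of them. The means were 106 ± 41.4 and 164 ± 36.6 RPKM (SD, n = 3 each), or 154% of WT in Ucp1-KO cells. Its log2 fold change of 0.66 (standard error 0.28, limma unadjusted p = 0.0503, adjusted p = 0.868) had an interval from 0.999 to 2.51 times the WT level. Without WT replicate 10 the log2 fold change was 0.96 (limma unadjusted p = 0.00307, adjusted p = 0.376), without WT replicate 11 it was 0.46 and without Ucp1-KO replicate 13 it was 0.49. Ces1d belongs to a cluster of similar Ces1 genes, and only uniquely identified reads were counted.

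Lipa on the reverse strand of chromosome 19 (34492316 to 34527474) encodes the acid lipase that degrades triglyceride and cholesteryl esters in lysosomes. Its WT cultures were nearly equal, with 165, 168 and 169 RPKM, while the Ucp1-KO cultures had 147, 191 and 191 RPKM. Replicate 13 was below and replicates 14 and 15 were above all WT cultures. For Lipa the log2 fold change was 0.07 (95% interval -0.22 to 0.36, limma adjusted p = 0.947). Lipa is also expressed by macrophages. Their markers summed to between 53.1 and 161 RPKM in WT and to 156, 767 and 40.6 RPKM in Ucp1-KO replicates 13, 14 and 15. Whether macrophage content bears on the level of Lipa was not tested. The second RefSeq row of Lipa, NM_021460, differed by at most 1 read in any culture.

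Aqp7 on the reverse strand of chromosome 4 (41033074 to 41048237), the gene of the glycerol channel, was the least abundant of the 10 genes in both genotypes. It had 55.3, 48.9 and 55.2 RPKM in WT and 65.0, 61.4 and 61.4 RPKM in Ucp1-KO cultures, each on at least 2061 reads. Again all Ucp1-KO values exceeded all WT values (two-sided exact permutation p = 0.10). The means of 53.1 ± 3.65 and 62.6 ± 2.07 RPKM (SD, n = 3 each) put the Ucp1-KO level at 118% of WT, with a log2 fold change of 0.23 (standard error 0.09, 95% interval 0.03 to 0.44, limma unadjusted p = 0.0326, adjusted p = 0.868). Leaving out single cultures gave 0.18 without WT replicate 11 at the lowest and 0.26 at the highest, with an unadjusted limma p under 0.05 in 2 of 6 cases. WT replicate 11 had the lowest Aqp7 and Ces1d and the highest sum of stromal markers. With the stromal marker level of each culture in the model, the log2 fold changes were 0.28 for Pnpla3 (limma unadjusted p = 0.0955), 0.18 for Aqp7 (unadjusted p = 0.132) and 0.39 for Ces1d (unadjusted p = 0.258), and 0 of the 10 genes had an unadjusted p under 0.05. The added term also raised the standard error of Pnpla3 from 0.11 to 0.14. Lum, 1 of the stromal markers, had a log2 fold change of -1.20 between genotypes itself (limma unadjusted p = 0.0232). Whether stromal content accounts for these differences was not tested.

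**Figure D3:**
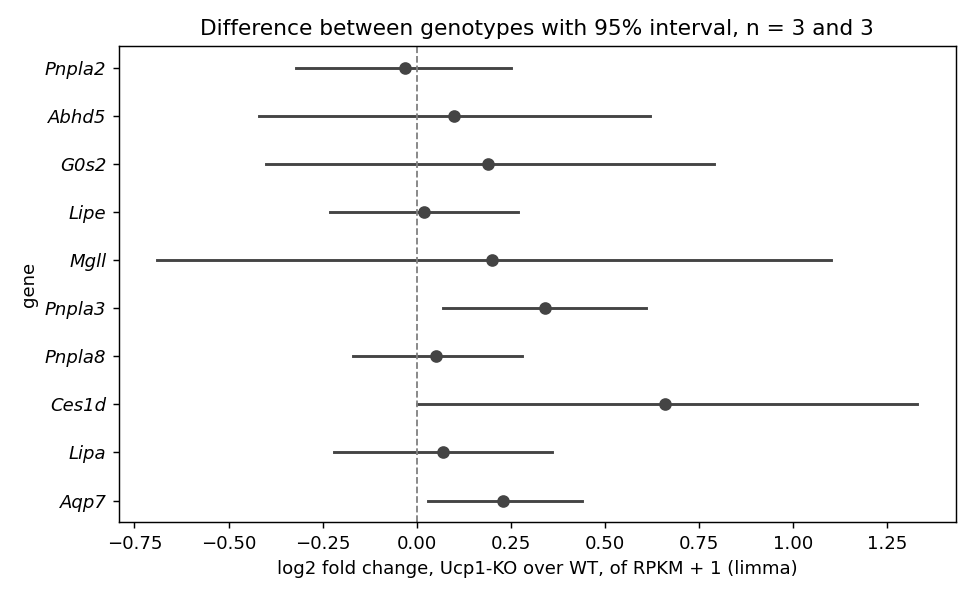
Log2 fold change of RPKM + 1 between Ucp1-KO and WT cells (points) with its 95% interval from limma (lines) for each gene, n = 3 cultures per genotype. The intervals of Pnpla3 and Aqp7 lie above 0 before adjustment, that of Ces1d begins at 0.999 times the WT level, and that of Mgll runs from -0.69 to 1.1.

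RPKM is scaled to transcript length, so that ratios of regulator to enzyme and of one enzyme to the next can be formed within each culture. G0s2 over Pnpla2 was 1.06, 1.19 and 1.18 in WT and 0.849, 1.32 and 2.12 in Ucp1-KO cultures. Inhibitor and lipase transcripts were thus near equal in WT cells, and replicate 15 had the largest excess of the inhibitor. Abhd5 over Pnpla2 was 0.184, 0.126 and 0.125 in WT and 0.183, 0.153 and 0.136 in Ucp1-KO cultures. Lipe over Pnpla2 was the most even ratio, between 0.579 and 0.696 in all 6 cultures. Mgll over Lipe was 0.379, 0.284 and 0.251 in WT and 0.519, 0.363 and 0.209 in Ucp1-KO cultures, which enclosed the WT range. Aqp7 over Pnpla2 was 0.0753, 0.0614 and 0.0745 in WT and 0.0788, 0.0825 and 0.0927 in Ucp1-KO cultures. This was the only one of the 5 ratios for which the genotypes did not overlap, with a difference of 0.27 on the log2 scale (two-sided exact permutation p = 0.10, adjusted over the 5 ratios p = 0.50). For the other 4 ratios the exact permutation p lay between 0.40 and 0.70 and the adjusted p was 0.700. The ratio of inhibitor to co-activator, G0s2 over Abhd5, was computed after the values were seen and was not tested. It was 5.74, 9.47 and 9.38 in WT and 4.65, 8.61 and 15.6 in Ucp1-KO cultures.

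**Figure D4:**
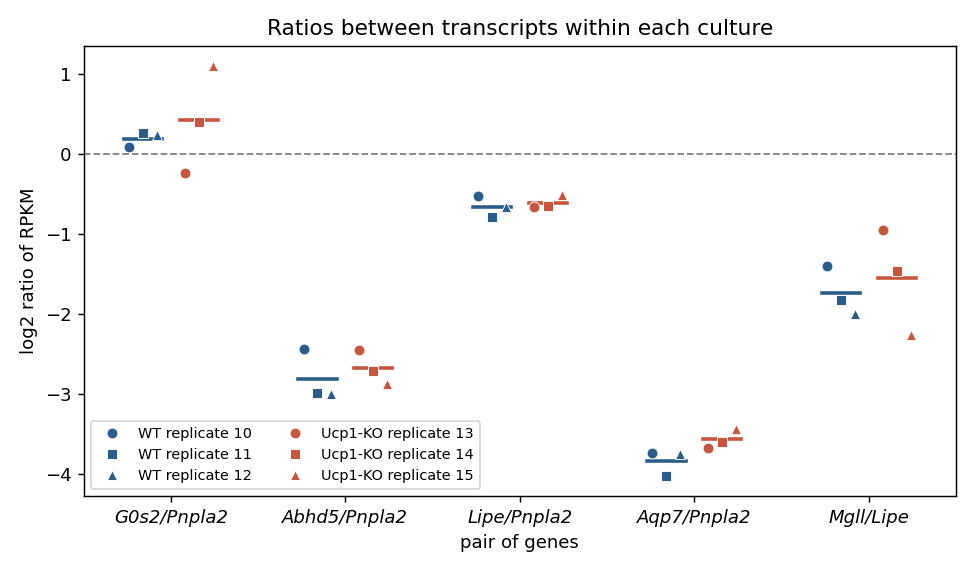
Log2 ratios of RPKM between pairs of genes within each culture, with 1 point per culture and a horizontal line at the mean of each genotype (n = 3). Lipe over Pnpla2 is the tightest pair, Aqp7 over Pnpla2 is higher in all Ucp1-KO cultures, and G0s2 over Pnpla2 and Mgll over Lipe are spread most within Ucp1-KO cells.

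Lipolysis genes beyond the 10 were described by 6 lists with 98 names, of which 72 genes were abundant enough to be tested. Of these, 0 had a limma adjusted p under 0.05 by either test. At an unadjusted p under 0.05, 6 were higher and 1 was lower in Ucp1-KO cells, 7 of 72 against 5.54% of all transcripts, and limma-voom gave 7 as well. In 8 of the 72 the genotypes did not overlap, against 11.2% of all transcripts.

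Among 16 other hydrolases 3 were higher in Ucp1-KO cells at an unadjusted p under 0.05, against 2.3% of all transcripts. Ces1f, a carboxylesterase of the same cluster as Ces1d, averaged 9.87 ± 0.704 RPKM in the WT cultures against 13.7 ± 1.30 RPKM in the Ucp1-KO cultures (SD, n = 3 each, limma adjusted p = 0.868). Abhd6, a monoglyceride hydrolase, had 5.94 ± 0.731 and 7.91 ± 1.11 RPKM, and Dagla, a diglyceride lipase, 3.81 ± 0.411 and 5.10 ± 0.786 RPKM (SD, n = 3 each, both limma adjusted p = 0.868). The most abundant hydrolases of this list were Lpl, the lipoprotein lipase, with 1107 ± 66.8 and 1238 ± 73.9 RPKM, and Ddhd2 with 36.0 ± 11.2 and 44.9 ± 16.2 RPKM (SD, n = 3 each). Among 16 droplet proteins, inhibitors and partners 0 had an unadjusted p under 0.05. Fabp4, the fatty acid-binding protein, had 26960 ± 666 and 27686 ± 1479 RPKM and the droplet protein gene Cidec 899.8 ± 183 and 1035 ± 341 RPKM (SD, n = 3 each). The 10 lysosomal genes had 1 point estimate above and 9 below 0, against 8369 above and 8496 below among all transcripts tested. They had 0 at an unadjusted p under 0.05 and a median log2 fold change of -0.12. Of these, the protease genes Ctsd and Ctsb were the most abundant, with 1027 ± 81.4 and 1021 ± 246 RPKM and 345 ± 41.6 and 311 ± 105 RPKM (SD, n = 3 each).

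Of 6 genes of other channels and glycerol use tested, 0 had an unadjusted p under 0.05. Gpd1, which makes glycerol-3-phosphate from a glycolytic intermediate, had 2187, 953 and 1029 RPKM in WT and 3067, 1544 and 1041 RPKM in Ucp1-KO cultures, with replicates 13 and 10 highest as for Mgll. The phosphatase gene Pgp had 76.7 ± 6.06 and 72.4 ± 3.64 RPKM (SD, n = 3 each). Of 13 genes that signal to lipolysis, 2 were higher and 1 was lower in Ucp1-KO cells at an unadjusted p under 0.05. Of all transcripts, 5.54% had such a p in either direction. Among these signalling genes, Prkar2b, a regulatory subunit of protein kinase A, had 198 ± 36.0 and 271 ± 41.1 RPKM, and Prkg1, a cyclic GMP-dependent kinase, 1.07 ± 0.217 and 0.587 ± 0.198 RPKM (SD, n = 3 each, limma adjusted p = 0.868 for both). The most abundant gene of this list was Gnas, the gene of the stimulatory G protein subunit, with 793 ± 78.1 and 918 ± 119 RPKM (SD, n = 3 each). These values belong to its RefSeq row with the highest mean, which is a non-coding transcript. The genes of a list are not independent of each other, so the balance of directions within a list was not tested. Of 11 transcriptional regulators 10 had a point estimate above 0, against 8369 of all 16865 transcripts tested. Irf4, which drives lipase genes in fasting, was the only 1 with an unadjusted p under 0.05, at 0.740 ± 0.143 and 1.74 ± 0.531 RPKM (SD, n = 3 each, limma unadjusted p = 0.00670, adjusted p = 0.868). The study listed Irf4 from these same cultures, so its direction is no independent evidence. Pparg and Cebpa, the adipogenic factors, were the most abundant with 122 ± 4.62 and 135 ± 8.46 RPKM and 141 ± 8.94 and 161 ± 13 RPKM (SD, n = 3 each).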

How the data were processed

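RNA of 6 cultures (3 WT, 3 Ucp1-KO) was read in single runs of 50 bases. Mapping by the authors was to build 38 of the mouse genome, and on the Genomatix Mining Station only reads with a unique identification were assigned to transcripts. The authors deposited RPKM values, 1 column per culture. CASAVA and bcl2fastq are named in the submitters' processing notes. The alignment program on that platform and its settings are not given in the sources used here. Groups and replicate numbers came from the sample titles.

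The count-based comparison of the study was not repeated. RefSeq rows with a mean of at least 0.5 RPKM (16865 of 28890) entered limma 3.58.1 (R 4.3.3) as log2(RPKM + 1), with a trended empirical Bayes prior and Benjamini-Hochberg adjustment (threshold 0.05). The added 1 RPKM makes differences of rare transcripts smaller. Single values and ratios were compared by exact two-sided permutation tests. Python 3.11.15 with scipy 1.17.1 was used for these.

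Library totals were recovered from Ensembl rows of known length (GENCODE M21), of whose values between 92.7% and 92.9% per culture were whole reads within 0.02 reads. With these totals a length that gave whole reads in every culture was found for 100.0% of the 16865 rows. Tested on simulated data, this returned 6 of 6 totals and exact reads for 491 of 500 transcripts. Each value of the 10 genes rested on at least 2061 reads. Reads without molecular identifiers cover counting error only. Of 200 transcripts changed in simulated cultures of Ucp1-KO against WT (16865 transcripts), limma called 175 at a fold change of 3 and 0 at a fold change of 1.5, with 5 and 0 other calls. With no transcript changed it made 0 calls. The simulated transcripts varied independently of each other, which those of real cultures need not do. Ucp1, at a log2 fold change of -1.78, was not called in the real data. The simulated counts therefore do not give the share of changes that would be detected here.

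The genes, lists and motifs were chosen with earlier results of these data known. Named pathway genes are those with an unadjusted p under 0.05 and the 2 most abundant of each list. A gene that this rule selects is not reported here. Coordinates and start windows are from RefSeq (GRCm38.p6), and exon overlaps from GENCODE M21. Alternatives were a constant of 0.1 RPKM, no minimum abundance, 1 row per gene, all annotations, median-of-ratios scaling, limma-voom on recovered reads, the stromal marker level in the model, and each culture left out. The limma p-values set a difference against the spread between these cultures, and the permutation p-values set it against relabelled cultures. How far either covers variation between mice is unknown, as the number of mice per culture is not given.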

Additional observations from a re-analysis of the deposited data

How the results depend on the processing

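No paired analysis was possible because the genotypes share no replicate number. The count of genes called among the 10 was 0 under every alternative run, and so was that of the pathway genes. Of 130 alternative log2 fold changes of the 10 genes 11 changed sign, each with an interval that included 0. The sign of Pnpla3, Ces1d and Aqp7 held throughout. Without a minimum abundance 22 of 28890 transcripts passed and 1456 had an unadjusted p under 0.05. With all annotations 5193 of 95358 had such a p, and with the stromal marker level in the model 307 of 16865, against 935 of 16865. In that model 0 of the 10 genes and 4 pathway genes had an unadjusted p under 0.05, Pnpla2 had a log2 fold change of 0.07 and Pnpla8 of -0.02. After median-of-ratios scaling, which moved the median of all transcripts from -0.002 to 0.009, 1 of the 10 genes, Pnpla3, had an unadjusted p under 0.05. The first 2 settings tested more rows, and for the others the cause was not tested. With single cultures left out, between 314 and 1760 transcripts, between 0 and 2 of the 10 genes and between 3 and 11 pathway genes had an unadjusted p under 0.05, lowest for the 10 genes without WT replicate 11. Estimates of the log2 fold change covered -0.11 to 0.05 for Pnpla2, -0.09 to 0.27 for Abhd5, -0.06 to 0.44 for G0s2, -0.03 to 0.07 for Lipe, -0.16 to 0.59 for Mgll, -0.02 to 0.11 for Pnpla8 and 0.00 to 0.19 for Lipa. Those of Lipa were without Ucp1-KO replicates 15 and 13. The ratio differences ran from -0.11 to 0.55 for G0s2 over Pnpla2, from -0.01 to 0.12 for Lipe over Pnpla2, from -0.12 to 0.53 for Mgll over Lipe, from 0.02 (without Ucp1-KO replicate 13) to 0.31 (without WT replicate 10) for Abhd5 over Pnpla2 and from 0.17 (without WT replicate 11) to 0.32 for Aqp7 over Pnpla2. The fewest reads behind a value of the 10 genes were 2061.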

Other observations

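Of the 10 genes, Mgll had the widest spread over the 6 cultures on the scale of log2(RPKM + 1), an SD of 0.54. Of 12258 other genes compared, 448 had Pearson's r over 0.9 with it over the 6 cultures, which share their libraries, so that the following likeness is only a description. The highest r values belonged to Cdt1 (0.997), Mmp19 (0.997), Bag6 (0.997), Mcm6 (0.996) and Incenp (0.996). Cdt1 and Mcm6 license DNA replication and Incenp acts in mitosis. Cdt1 had 2.06, 1.39 and 1.21 RPKM in WT and 2.80, 1.96 and 0.974 RPKM in Ucp1-KO cultures, and Mcm6 had 3.45, 1.98 and 1.36 and 5.55, 3.12 and 0.966 RPKM. The metalloproteinase gene Mmp19 was more abundant, with 39.5, 34.6 and 34.0 and 45.5, 38.3 and 31.4 RPKM.

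The deposited table also holds rows of other annotations for the 10 genes, which share reads with the RefSeq rows. For Mgll 8 such rows had log2 fold changes between 0.19 and 0.26, and for Abhd5 7 rows between 0.06 and 0.11. Of 9 such rows of Pnpla2, 8 had a point estimate below 0. The 2 further rows of Pnpla3 had log2 fold changes of 0.30 and 0.49, both at an unadjusted limma p under 0.05. This p was reached by 1 of 4 further rows of Aqp7 and 1 of 2 of Ces1d, and 0 rows of the 10 genes passed after adjustment. For the row of Aqp7 with the highest mean over all annotations the unadjusted p was 0.0764.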
